A study of Mus musculus with 16 samples.

Results

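The 10 genes described here are feedback, survival and target genes of the transcription factor NF-κB. They are 3 negative regulators (Nfkbia, Nfkbie and Tnfaip3), the nuclear IκB protein gene Nfkbiz, 2 subunits (Nfkb1 and Rel), 3 survival genes (Birc3, Cflar and Bcl2a1b) and the adhesion gene Icam1. They were chosen by symbol among the 32285 genes of the deposited matrices, and all 10 were found. Their levels were followed across 12 marker-gated cell classes and the 4 groups of a study of B16 melanomas.

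The study implanted 1000000 cells of the Bro4.1 B16 melanoma line, either control or lacking B2m, the light chain of MHC class I, under the skin of C57BL/6J mice. On days 6, 9 and 12 each mouse was given 100 mcg of antibody intraperitoneally, either anti-CD40 or a rat IgG2a isotype control, and the tumour was taken on day 14. CD45-positive cells were isolated on magnetic beads, tagged with 1 hashtag antibody per mouse, pooled within a group and run on 1 droplet lane per pool. The 4 groups were control tumours under isotype (5 mice, 2 pools), control tumours under anti-CD40 (2 mice, 1 pool run on 2 lanes), B2m-null tumours under isotype (5 mice, 2 pools) and B2m-null tumours under anti-CD40 (4 mice, 2 pools). The sample labels give the B2m knockout as the genotype of the mouse, whereas the design text puts it in the implanted cells, and the design text was followed. All groups share the C57BL/6J host, the antibody injections and the enzyme digestion of the tumour. The labels used here give no age.

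In a resting cell, NF-κB dimers are held in the cytoplasm by inhibitors of the IκB family. CD40, a receptor of the TNF receptor family on antigen-presenting cells, activates the kinases that mark these inhibitors for destruction. The freed dimers then enter the nucleus. Among the genes they switch on are some of the inhibitors, which dampen the signal, the atypical nuclear protein IκBζ, which acts largely as a coactivator of later target genes, genes that block cell death, and adhesion and cytokine genes. The same genes respond to TNF, interleukin 1, Toll-like receptors and the T cell receptor, so their level is not a readout of CD40 alone.

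In the promoter table of RefSeq (build GRCm38.p6) 8 of the 10 genes had an entry. The 250 bases before the start site were searched on both strands for the κB consensus, the site that NF-κB dimers bind. It was present in 4 of the 8 genes (Nfkbia, Nfkbie, Rel and Tnfaip3) and in 7.25% of all 32851 windows of that length. These 3 windows are shown because Nfkbia and Nfkbie rose and Rel fell in the same macrophages, and each holds the consensus, in capitals. In the window of Rel 2 overlapping matches run together. The sequences are given 5′ to 3′ on the strand of the gene, at chr12:55492648-55492897 (Nfkbia, minus strand), chr17:45555450-45555699 (Nfkbie, plus strand) and chr11:23770970-23771219 (Rel, minus strand).
Nfkbia: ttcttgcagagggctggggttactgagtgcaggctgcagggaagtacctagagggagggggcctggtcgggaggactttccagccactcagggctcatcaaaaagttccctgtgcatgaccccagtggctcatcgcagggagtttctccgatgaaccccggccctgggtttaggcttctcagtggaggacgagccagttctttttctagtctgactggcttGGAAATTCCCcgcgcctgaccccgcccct
Nfkbie: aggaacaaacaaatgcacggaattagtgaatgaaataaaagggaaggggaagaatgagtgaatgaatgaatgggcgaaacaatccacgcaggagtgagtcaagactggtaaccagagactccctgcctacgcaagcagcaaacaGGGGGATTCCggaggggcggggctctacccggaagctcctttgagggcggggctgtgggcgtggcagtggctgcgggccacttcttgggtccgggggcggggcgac
Rel: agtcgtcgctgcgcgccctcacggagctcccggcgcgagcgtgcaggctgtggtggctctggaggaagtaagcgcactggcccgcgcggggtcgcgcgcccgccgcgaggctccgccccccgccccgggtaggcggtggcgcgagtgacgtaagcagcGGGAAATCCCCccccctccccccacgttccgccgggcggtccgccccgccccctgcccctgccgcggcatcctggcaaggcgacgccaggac
The match begins 29 bases before the start site in Nfkbia, 106 in Nfkbie and 92 in Rel. A match describes the letters of the window and is not evidence of binding.

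On the GRCm38 build with the GENCODE M21 annotation, the genes lie at chr12:55489410-55492647 (Nfkbia, minus strand), chr17:45555703-45563169 (Nfkbie, plus), chr16:55811375-55838899 (Nfkbiz, minus), chr10:19000910-19015657 (Tnfaip3, minus) and chr3:135584655-135691547 (Nfkb1, minus). The others lie at chr11:23736847-23770970 (Rel, minus), chr9:7848699-7873186 (Birc3, minus), chr1:58711508-58758884 (Cflar, plus), chr9:89199209-89207827 (Bcl2a1b, plus) and chr9:21015985-21028817 (Icam1, plus). Nfkb1 and Bcl2a1b each overlap another annotated gene on the same strand (Gm43430 and Gm29094), and reads of such pairs may not be told apart.

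The 8 lanes held 46.0 to 99.3 × 1000000 counts of unique molecular identifiers (UMIs) over 116552 barcodes. Hashtags assigned 35.4% of the barcodes in B2m-null isotype replicate 1, 60.7% in B2m-null CD40 replicate 1 and 74.0% to 92.7% in the other lanes. A total of 75726 cells were assigned to a mouse and passed the filters, of which 54039 fell in 1 of the 12 classes. Cells that fell in no class made up 26.0% in control CD40 and 12.5% to 16.8% in the other groups. As a check of the tumour genotype, B2m stood at 231 to 687 counts per 1000000 (CPM) in the carried-over melanoma cells of the 4 B2m-null lanes and at 1126 to 2108 CPM in those of the 4 control lanes. Classes were gated on marker genes, none of which is a member, and each is to be read as "-like": macrophage-like, monocyte-like and so on. No 2 lanes shared more than 0.623% of their barcodes.

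The first question is which cells carried these transcripts without a CD40 agonist. Levels are CPM of the UMI counts summed over the cells of 1 class in 1 mouse, with at least 20 cells, and are compared within a gene only. In isotype mice of both genotypes, 7 of the 10 genes had their highest mean in mature DC (Ccr7-positive dendritic cells): Nfkb1, Rel, Nfkbie, Birc3, Cflar, Bcl2a1b and Icam1. Nfkbia and Nfkbiz were highest in neutrophils, and Tnfaip3 in CD4 T cells. Neither the class markers nor the gate used these genes, but the list was drawn up with results of these data known. The share of all genes with their highest mean in mature DC is not given here. The order is thus a description.

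Rel, which encodes the c-Rel subunit, averaged 1149 CPM ± 123 (SD, n = 9 mice) in mature DC. The next classes were cDC2 at 377 CPM ± 84.3 (n = 9) and B cells at 368 CPM ± 114 (n = 3), and macrophages were the lowest at 99.2 CPM ± 24.5 (n = 10). Within a mouse, mature DC exceeded macrophages in 9 of 9, with a median ratio of 11.5. Rel thus spanned the widest range between these 2 classes among the 10 genes. Nfkb1, which encodes the p105 precursor of the p50 subunit, ran from 715 CPM ± 88.1 in mature DC and 547 CPM ± 83.2 in cDC2 (n = 9 each) to 136 CPM ± 29.6 (n = 10) in macrophages.

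Bcl2a1b, a member of the BCL2 family that blocks apoptosis, averaged 1836 CPM ± 403 (n = 9) in mature DC and 459 CPM ± 172 (n = 4) in neutrophils, the next class. Macrophages averaged 333 CPM ± 86.4 (n = 10), and pDC were lowest at 55.8 CPM ± 55.9 (n = 8). Birc3 (cIAP2, a ubiquitin ligase of the TNF receptor complex) stood at 269 CPM ± 47.1 in mature DC and at 52.1 CPM ± 12.8 in macrophages. Cflar, which encodes the caspase-8 inhibitor c-FLIP, stood at 396 CPM ± 77.5 and 145 CPM ± 23.0 in the same 2 classes. All 3 survival genes were higher in mature DC than in macrophages in 9 of 9 mice. Against neutrophils, Birc3 was higher in mature DC in 2 of 4 mice and Cflar in 3 of 4. Birc3 averaged 202 CPM ± 86.7 (n = 4) in neutrophils. Icam1, the ligand of the integrin LFA-1, averaged 144 CPM ± 34.8 in mature DC, 80.5 CPM ± 23.2 (n = 8) in NK cells and 41.1 CPM ± 13.5 in macrophages.

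The 3 negative regulators and Nfkbiz did not share an order. Nfkbia, which encodes the inhibitor IκBα, averaged 3034 CPM ± 572 (n = 4) in neutrophils, 1223 CPM ± 113 (n = 10) in monocytes and 1152 CPM ± 109 (n = 9) in mature DC. Nfkbiz, which encodes the nuclear protein IκBζ, averaged 2213 CPM ± 525 in neutrophils, 761 CPM ± 155 in monocytes and 107 CPM ± 39.5 (n = 10) in cDC1. Both were lower in mature DC than in neutrophils in 4 of 4 mice, the reverse of Rel. Tnfaip3, which encodes the ubiquitin-editing enzyme A20, was led by CD4 T cells, at 733 CPM ± 238 (n = 6), and NK cells, at 719 CPM ± 117 (n = 8). Not all lymphocytes were high: B cells stood at 147, 88.1 and 69.9 CPM in the isotype mice with at least 20 cells. Nfkbie, which encodes IκBε, was low throughout, from 87.8 CPM ± 25.2 in mature DC to 24.8 CPM ± 7.98 in macrophages.

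**Figure D1:**
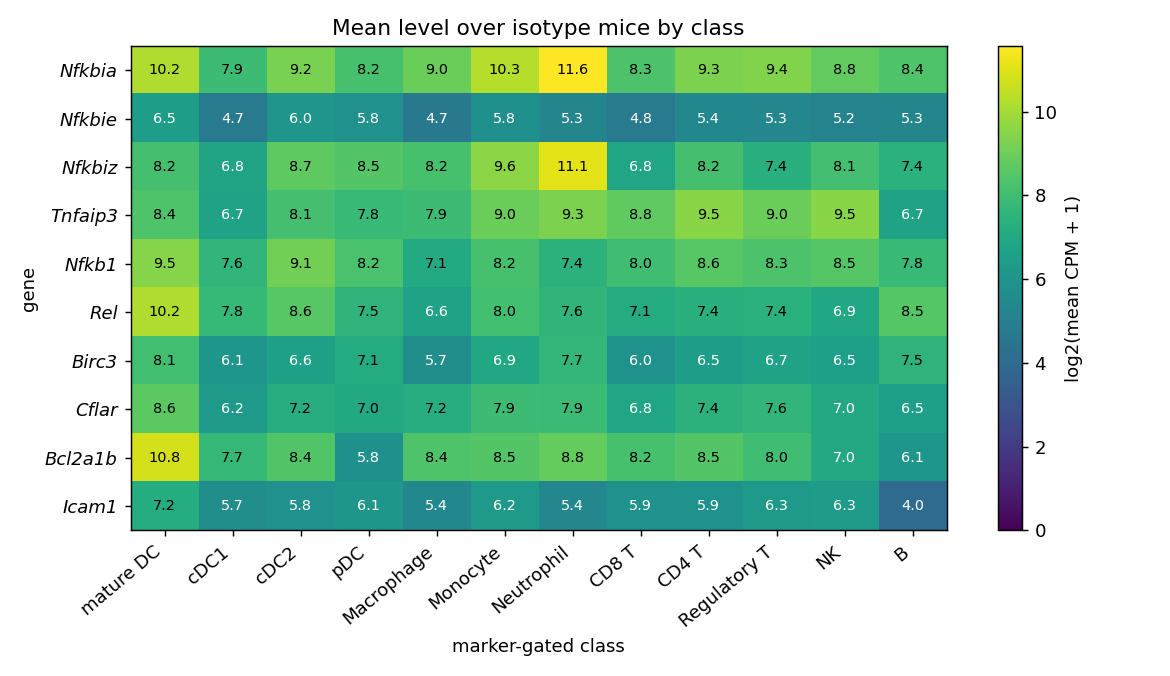
Mean level of each gene over isotype mice by class, as log2(mean CPM + 1), with rows for genes and columns for the 12 classes. The mature DC column is the brightest for 7 genes, and the neutrophil column for Nfkbia and Nfkbiz.

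The test between neighbouring classes had too few mice for its number of steps, and says nothing on whether neighbours differ. Of 110 steps from 1 class to the next, 12 had an exact permutation p under 0.05 (sign flips within mice, two-sided) and 0 passed after Benjamini-Hochberg adjustment, the lowest adjusted p being 0.215. Steps had 3 to 10 mice with both classes. The smallest p this test allows is 0.25 with 3 mice and 0.00195 with 10, and no single step could pass the adjustment over 110 at either. By count of mice, Rel was higher in mature DC than in cDC2 in 8 of 8, and Bcl2a1b was higher in mature DC than in neutrophils in 4 of 4. Birc3 was higher in mature DC than in neutrophils, its next class, in 2 of 4. Cd40 itself, looked up after the values of the members had been seen, averaged 264.5 CPM ± 49.5 in mature DC, 76.8 CPM ± 34.2 in monocytes, 44.7 CPM ± 13.8 in macrophages and 8.33 CPM ± 6.88 in CD8 T cells.

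The members did not follow 1 another closely across classes. Over 135 sums of a class in a mouse, the Pearson r of log2(CPM + 1) between pairs of members had a median of 0.31 over 45 pairs. It was highest for Nfkbia with Nfkbiz (r = 0.79) and lowest for Tnfaip3 with Rel (r = -0.19). The sums share mice, lanes and depth, so these values are descriptions. Genes outside the list with the most similar pattern were Ccnd2 (r = 0.80) and Malt1 (r = 0.78) for Nfkb1, Jak2 (r = 0.80) and Syngr2 (r = 0.75) for Rel, Ifrd1 (r = 0.82) and Srgn (r = 0.81) for Nfkbia, and Il18rap (r = 0.77) and Il18r1 (r = 0.73) for Tnfaip3. Nfkbia was itself the closest gene to Nfkbiz and to Cflar (r = 0.73). For Bcl2a1b the closest gene was Ggta1 (r = 0.75), for Icam1 Ube2r2 (r = 0.68), for Birc3 Btg1 (r = 0.62), and for Nfkbie Il4ra (r = 0.54).

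The second question is how anti-CD40 changed these genes in B2m-null tumours. In macrophages 5 genes rose (Icam1, Nfkbie, Bcl2a1b, Birc3 and Nfkbia) and Rel fell. In monocytes 4 rose (Bcl2a1b, Icam1, Nfkbie and Birc3), and Rel and Nfkbiz fell. In CD8 T cells Nfkbia, Nfkbiz and Tnfaip3 rose, and Nfkb1 and Rel fell. In all, 17 of 56 pairs of a member and a class passed (edgeR quasi-likelihood test, Benjamini-Hochberg adjusted p under 0.05 over all genes of a class), where 18% of all 39015 pairs of a gene and a class passed. By class, 37% of all genes passed in macrophages, 21.2% in monocytes and 5.78% in CD8 T cells (higher and lower in turn, 18.2% and 18.7%, 12.1% and 9.1%, and 3.86% and 1.92%), so a member called in macrophages is 1 of many genes called there. In sums of this kind, more cells expressing a gene and more transcripts per cell cannot be told apart. Macrophages had a median log2 change of 0.42 over the 10 members against -0.02 over all genes, monocytes 0.13 against 0.00, and CD8 T cells 0.32 against 0.04. Because levels are CPM of all counts in a class while the fit also scales for composition, fold changes exceed the ratios of CPM by a median of 0.20 on the log2 scale in macrophages, and by 0.16 in both monocytes and CD8 T cells.

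**Figure D2:**
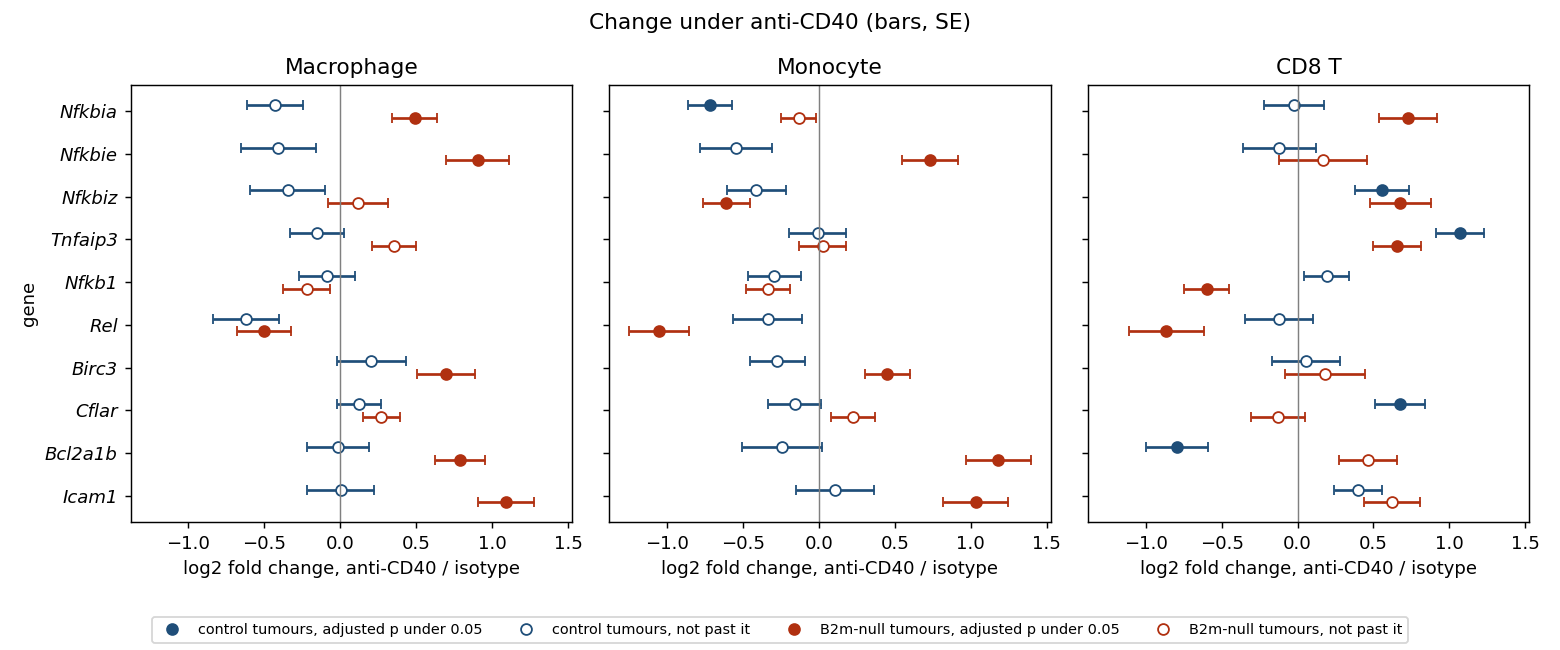
Log2 fold change of each gene under anti-CD40 against isotype in macrophages, monocytes and CD8 T cells, with bars for the standard error, blue for control tumours and red for B2m-null tumours. Filled points passed an adjusted p of 0.05: 6, 6 and 5 red points, and 0, 1 and 4 blue ones.

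In macrophages of B2m-null tumours Icam1 stood at 29.3, 31.7, 22.7, 41.4 and 27.0 CPM in the isotype mice and at 54.4, 82.0, 42.7 and 53.7 CPM in the anti-CD40 mice. Every treated mouse lay above every isotype mouse. The fold change was 2.13 (log2 1.09 ± 0.18 SE, adjusted p = 0.000305), the largest rise among the members in this class. It kept its call under every alternative run.

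Nfkbie stood at 15.5, 22.7, 22.1, 23.0 and 14.1 CPM under isotype and at 36.3, 39.7, 22.1 and 26.8 CPM under anti-CD40 (1.87-fold, log2 0.90 ± 0.21 SE, adjusted p = 0.00261). The groups overlapped in 1 treated mouse of the second pool. Nfkbia stood at 330, 539, 474, 535 and 373 CPM under isotype and at 635, 634, 449 and 477 CPM under anti-CD40 (1.40-fold, log2 0.49 ± 0.15 SE, adjusted p = 0.0139). Both inhibitors were high in the 2 treated mice of the first pool and near the isotype range in the 2 of the second. Within pools of the same number, the CPM of Nfkbia was 1.42 times the isotype mean in the first and 1.02 times in the second. For Nfkbie these ratios were 1.89 and 1.32, and for Icam1 2.45 and 1.41. Tnfaip3 (log2 0.35 ± 0.15 SE, adjusted p = 0.067) and Nfkbiz (log2 0.11 ± 0.20 SE, adjusted p = 0.69) did not pass.

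Of the survival genes, Bcl2a1b stood at 337, 220, 263, 296 and 234 CPM under isotype and at 296, 398, 444 and 469 CPM under anti-CD40 (1.72-fold, log2 0.79 ± 0.16 SE, adjusted p = 0.00144). Only the lowest treated mouse fell within the isotype range. Birc3 stood at 35.1, 70.3, 48.7, 53.6 and 31.2 CPM against 86.7, 72.4, 53.0 and 52.4 CPM (1.62-fold, log2 0.70 ± 0.19 SE, adjusted p = 0.00885), with the 2 treated mice of the first pool above all others. Cflar did not pass (log2 0.27 ± 0.12 SE, adjusted p = 0.085).

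Rel went the other way, from 78.0, 113, 95.7, 80.2 and 55.8 CPM to 70.3, 45.3, 42.4 and 46.3 CPM (log2 -0.50 ± 0.18 SE, adjusted p = 0.0334). Of the treated mice, 3 lay below every isotype mouse. Nfkb1 did not pass (log2 -0.22 ± 0.15 SE, adjusted p = 0.26). Single pools carried part of these calls: without B2m-null CD40 replicate 1, Nfkbia (adjusted p = 0.22), Birc3 (0.15) and Nfkbie (0.052) were lost, and without its replicate 2, Rel (0.27) and Bcl2a1b (0.054). Without B2m-null isotype replicate 1, Rel (0.41) and Nfkbia (0.069) were lost, and with library totals in place of composition scaling, Nfkbia (log2 0.29, adjusted p = 0.13) and Birc3 (log2 0.50, adjusted p = 0.056).

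**Figure D3:**
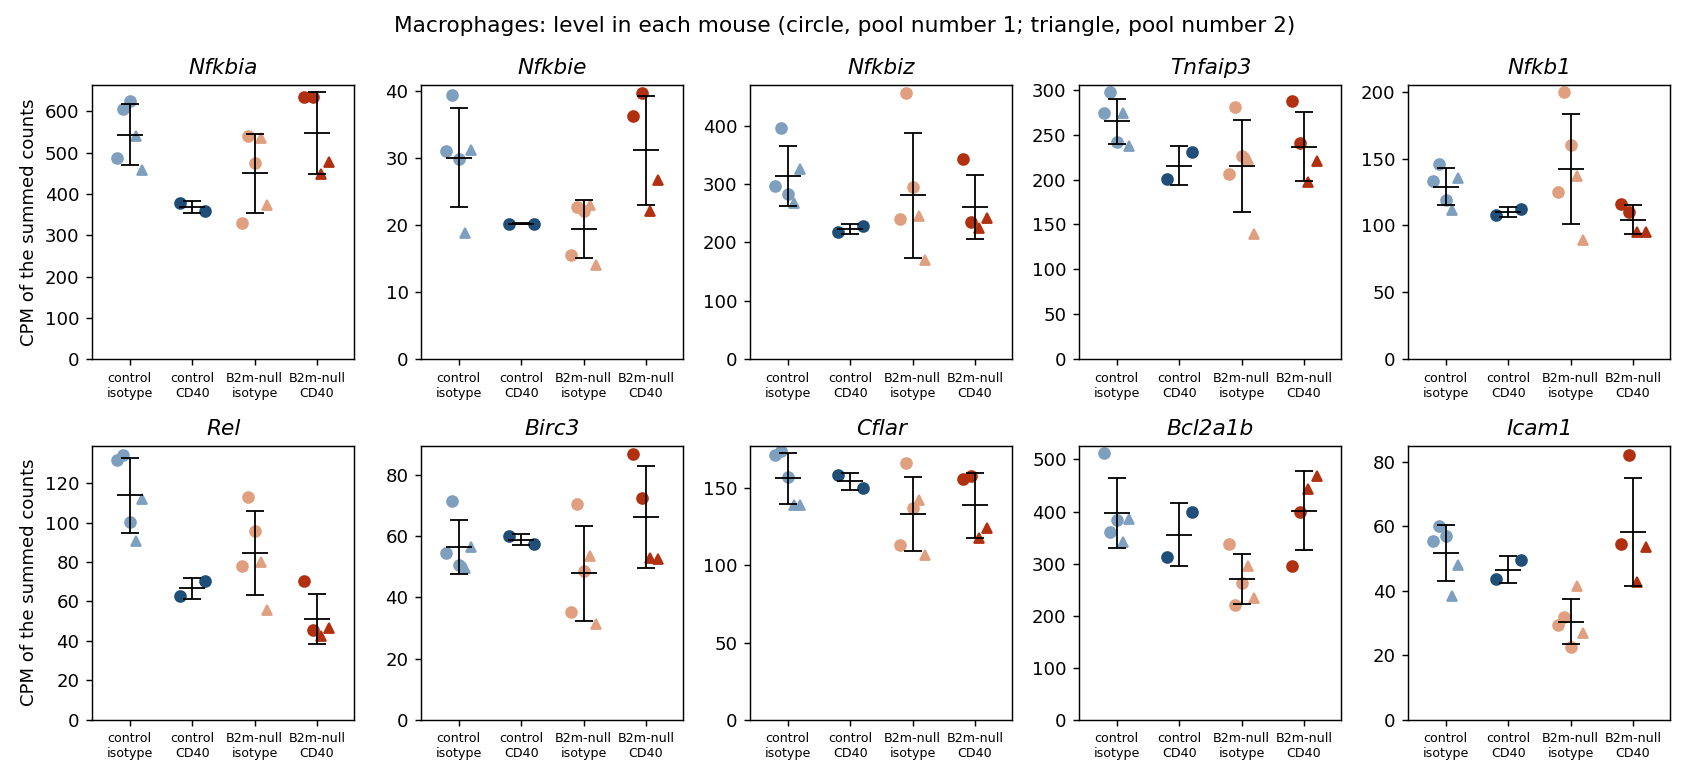
Level of each gene in macrophages of each mouse, in CPM, by group, with the mean and SD in black and the pool number as the marker shape. Icam1 of B2m-null tumours lies at 42.7 CPM and above under anti-CD40 and at 41.4 CPM and below under isotype, and Rel in 3 of the 4 treated B2m-null mice lies at 46.3 CPM or below.

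Other NF-κB genes moved in these macrophages as well. The 43 further genes of the pathway were listed with results of these data known, so their counts here and below are descriptions. Of the 43, with Bcl2a1a and Bcl2a1d among them, 18 rose and 6 fell in these macrophages, with a median log2 change of 0.27. Of all genes there, 18.2% were higher and 18.7% lower, with a median of -0.02. Those with the largest changes were the chemokine Ccl5 (log2 2.75 ± 0.31 SE), the mitochondrial superoxide dismutase Sod2 (1.60 ± 0.16), Bcl2a1a (1.55 ± 0.25), the adaptor Traf1 (1.33 ± 0.24), the A20-binding protein Tnip1 (1.04 ± 0.12) and the prostaglandin synthase Ptgs2 (0.96 ± 0.26). Bcl2a1a and Bcl2a1d rose by log2 1.55 and 0.88 (adjusted p = 0.00021 and 0.0054). Their transcripts match that of Bcl2a1b at 98.2% and 99.1% of aligned bases, so reads of the 3 genes may not always be told apart. A list of 20 dissociation and stress genes had 2 higher and 2 lower, with a median of 0.07. Summed markers of neutrophils ran from 88.3 to 188 CPM in these treated macrophages and from 23.5 to 44.8 CPM under isotype, and those of T cells from 9.64 to 14.0 and from 2.71 to 11.3 CPM. Neutrophils themselves held 28200 to 105690 CPM of the neutrophil markers across these 2 groups. The part of either in the results was not tested.

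Bcl2a1b had the largest rise among the members called in monocytes of B2m-null tumours. It stood at 238, 232, 309, 448 and 294 CPM under isotype and at 475, 571, 679 and 802 CPM under anti-CD40, with no overlap (2.27-fold, log2 1.18 ± 0.21 SE, adjusted p = 0.000581). Icam1 stood at 59.5, 43.5, 39.3, 85.9 and 57.7 CPM against 142, 122, 112 and 107 CPM, again with no overlap (2.04-fold, log2 1.03 ± 0.21 SE, adjusted p = 0.0017). Both kept their calls under every alternative run. Bcl2a1a rose too in this class (log2 1.37 ± 0.22 SE, adjusted p = 0.00017), whereas Bcl2a1d did not pass (log2 0.48, adjusted p = 0.19).

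Rel fell most. It stood at 357, 304, 270, 193 and 173 CPM under isotype and at 98.4, 75.9, 115 and 117 CPM under anti-CD40 (log2 -1.05 ± 0.20 SE, adjusted p = 0.000735). The highest treated mouse was below the lowest isotype mouse, and the call held under every alternative run. Within pools of the same number the ratio was 0.28 in the first and 0.63 in the second. Nfkb1 did not pass (log2 -0.33 ± 0.14 SE, adjusted p = 0.11), though its CPM did not overlap, at 247 to 315 under isotype and 179 to 210 under anti-CD40.

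Of the IκB genes in this class, Nfkbie rose, from 39.6, 19.3, 39.3, 57.8 and 42.6 CPM to 72.7, 62.4, 75.6 and 65.9 CPM (1.66-fold, log2 0.73 ± 0.19 SE, adjusted p = 0.00797), with no overlap. Nfkbiz, the coactivator gene, fell, from 862, 1077, 849, 626 and 528 CPM to 546, 413, 375 and 437 CPM (log2 -0.61 ± 0.15 SE, adjusted p = 0.00749), with 1 treated mouse inside the isotype range. Nfkbia (log2 -0.13 ± 0.11 SE) and Tnfaip3 (log2 0.03 ± 0.16 SE) did not pass. Of the other survival genes Birc3 rose (1.37-fold, log2 0.45 ± 0.15 SE, adjusted p = 0.0359), from 84.3 to 116 CPM under isotype to 124 to 133 CPM. Cflar did not pass (log2 0.23 ± 0.15 SE, adjusted p = 0.29).

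The rise of Birc3 was lost with library totals (log2 0.28, adjusted p = 0.19) and without any 1 of the 4 pools of B2m-null tumours (adjusted p = 0.058 to 0.17). It was also lost without either control CD40 mouse (0.055 and 0.054), the first control CD40 lane (0.060) or control isotype replicate 1 (0.051). Nfkbie was lost without B2m-null CD40 replicate 2 (adjusted p = 0.071) or B2m-null isotype replicate 1 (0.054), and Nfkbiz without the same pools (0.063 and 0.22). Of the 20 dissociation genes 8 fell and 0 rose by the same test, with a median log2 change of -0.35. Their summed level was 9343 to 11527 CPM under anti-CD40 and 13130 to 16857 CPM under isotype, and its part in the falls of Rel and Nfkbiz was not tested. Among the 43 further pathway genes 9 rose and 5 fell, where 12.1% of all genes were higher and 9.1% lower. The largest changes were those of the adhesion gene Vcam1 (log2 2.39 ± 0.55 SE), Sod2 (1.81 ± 0.18), Ccl5 (1.46 ± 0.30), Bcl2a1a (1.37 ± 0.22), Cd83 (-1.28 ± 0.34) and Tnip1 (1.14 ± 0.22). One treated mouse held 2264 CPM of neutrophil markers, against a median of 156 CPM over the 4.

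**Figure D4:**
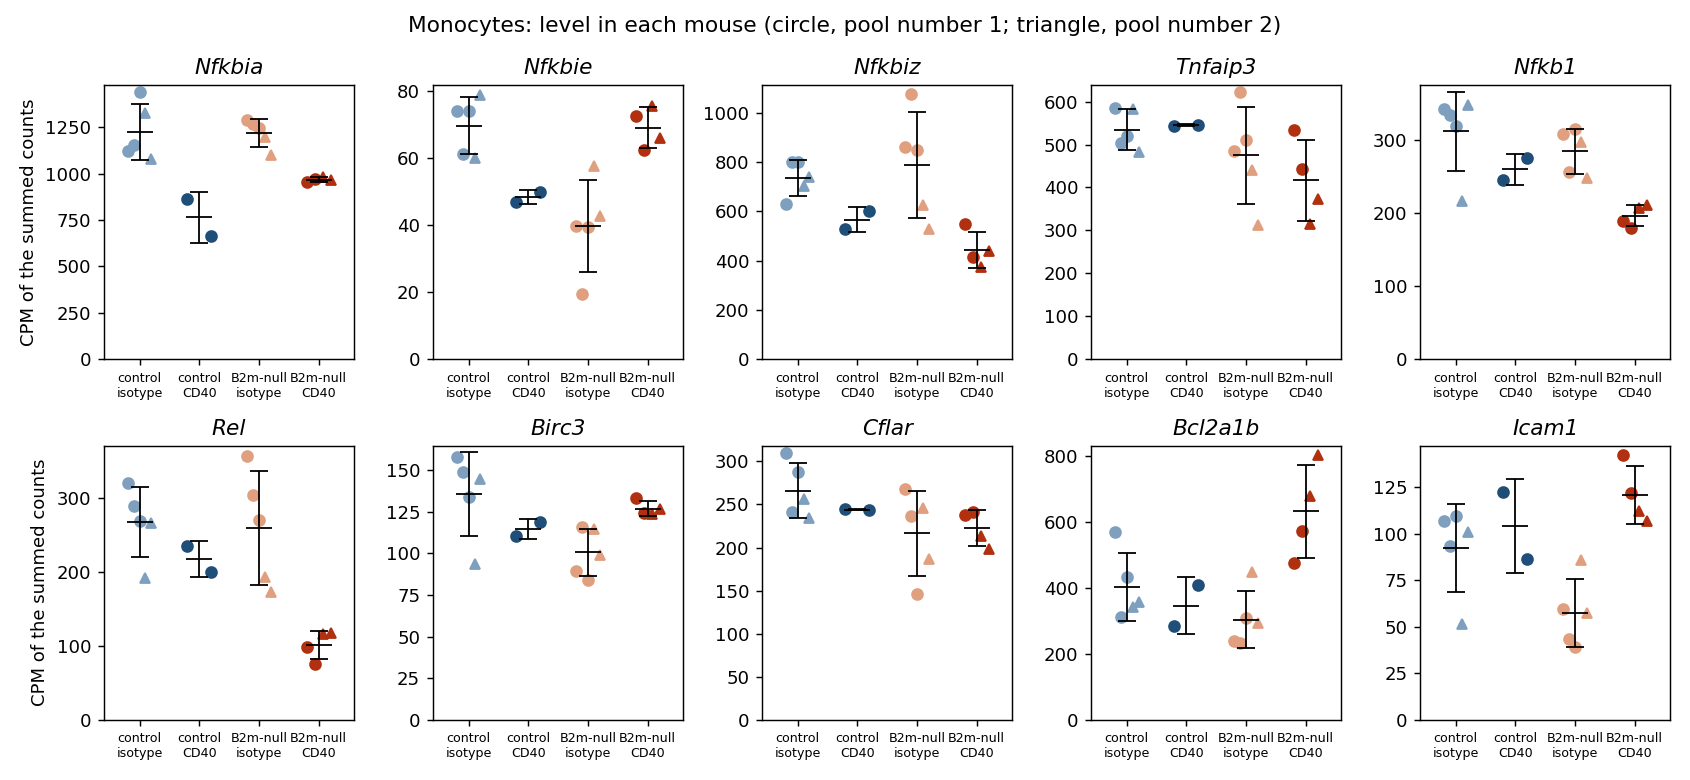
Level of each gene in monocytes of each mouse, in CPM, by group, with the mean and SD in black and the pool number as the marker shape. In B2m-null tumours the treated mice lie above all isotype mice for Bcl2a1b, Icam1 and Nfkbie and below them for Rel, while in control tumours Nfkbia is lower under anti-CD40.

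In the CD8 T cells of tumours lacking B2m, both subunit transcripts were lower under anti-CD40. Rel stood at 208, 226, 76.6 and 155 CPM in the 4 isotype mice with enough cells and at 67.2, 57.0, 62.1 and 64.4 CPM under anti-CD40 (log2 -0.86 ± 0.25 SE, adjusted p = 0.0446). Nfkb1 stood at 417, 366, 242 and 314 CPM against 203, 164, 179 and 164 CPM (log2 -0.60 ± 0.15 SE, adjusted p = 0.02). Neither gene overlapped between the groups. Nfkbia (log2 0.73 ± 0.19 SE, adjusted p = 0.03), Tnfaip3 (log2 0.65 ± 0.16 SE, adjusted p = 0.0184) and Nfkbiz (log2 0.68 ± 0.20 SE, adjusted p = 0.0488) rose, and all 3 overlapped between the groups.

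The isotype mice in this fit had 21, 34, 356 and 61 CD8 T cells, against 195 to 1982 in the treated mice, and the fit weights mice by their counts. With at least 50 cells per mouse, which leaves out B2m-null isotype replicate 1, Nfkbia, Nfkb1, Rel and Nfkbiz lost their calls (adjusted p = 0.099, 0.096, 0.23 and 0.075). With library totals the 3 rises were lost (adjusted p = 0.12 to 0.18), and without B2m-null isotype replicate 2 they reached adjusted p = 0.24 to 0.72. Without B2m-null CD40 replicate 1, Nfkbia (0.17), Nfkbiz (0.13) and Rel (0.074) were lost, and without its replicate 2, Tnfaip3 (0.14), Nfkb1 (0.064) and Rel (0.097). Nfkbiz was lost without any 1 pool, control mouse or control CD40 lane (0.052 to 0.72), and Rel also without the second control CD40 mouse (0.054) or control isotype replicate 1 (0.051). Icam1 just missed the threshold (log2 0.62 ± 0.19 SE, adjusted p = 0.051). Bcl2a1b (log2 0.46 ± 0.19 SE, adjusted p = 0.16), Birc3 (0.18 ± 0.26), Nfkbie (0.17 ± 0.29) and Cflar (-0.13 ± 0.18) did not pass. Of the dissociation list 4 genes rose in this comparison (Egr1, Junb, Ier2 and Btg2), and its summed level overlapped, at 4305 to 5774 CPM under anti-CD40 and 3759 to 6112 CPM under isotype. Of 42 further pathway genes tested, Ccl5 rose (log2 2.01 ± 0.48 SE), and Cd83 (-2.67 ± 0.45), Ccl3 (-1.73 ± 0.39), Tnip3 (-1.52 ± 0.34) and Ccl4 (-1.23 ± 0.35) fell. Of all genes there, 3.86% were higher and 1.92% lower. Summed markers of mature DC, which carry the highest Rel, were 20.5 to 35.8 CPM in the treated CD8 T cells and 17.4 to 119 CPM under isotype, and their part in the falls was not tested.

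In NK cells, B cells and neutrophils of B2m-null tumours, 0 members passed (edgeR), while DESeq2 called 1 in NK cells and 0 in the other classes. At an unadjusted edgeR p under 0.05 there were 3 of 10 in NK cells, 3 of 8 in B cells and 1 of 8 in neutrophils. The lowest adjusted p were those of Icam1 in NK cells (log2 1.00 ± 0.30 SE, adjusted p = 0.061, 4 against 3 mice) and of Bcl2a1b in B cells (log2 1.81 ± 0.53 SE, adjusted p = 0.088, 3 against 2 mice). Bcl2a1b in NK cells stood at log2 1.11 ± 0.39 SE (adjusted p = 0.11) and Tnfaip3 in B cells at log2 1.13 ± 0.49 SE (adjusted p = 0.22). The share of all genes that passed was 3.58% in NK cells, 2.62% in B cells and 0.314% in neutrophils.

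Mature DC, the class with the highest mean of 7 of the 10 genes under isotype, were too few under anti-CD40 to enter the main fit. They numbered 25, 15, 9 and 8 cells in the B2m-null mice and 7 and 18 in the control mice. Rel stood at 542, 494, 767 and 333 CPM in the treated B2m-null mice, below the 919 to 1615 CPM of the 5 isotype mice. Icam1 stood at 314, 300, 241 and 185 CPM against 70.9 to 239 CPM. Pooled over mice, Rel had 131 counts, or 527 CPM (exact Poisson 95% interval 440.6 to 625.3, counting error only), against 1039 CPM (988 to 1092) under isotype. In a fit that admitted mice with at least 5 cells, added after the data were seen, Rel fell (log2 -1.13 ± 0.20 SE, adjusted p = 0.000563) and Icam1 rose (log2 0.94 ± 0.28 SE, adjusted p = 0.0298), where 10.1% of all genes passed. In control tumours Rel stood at 1073 CPM (841.3 to 1350) under anti-CD40, from 73 counts, and at 1184 CPM (1133 to 1237) under isotype, and it did not pass (log2 -0.28 ± 0.26 SE, adjusted p = 0.76). In B2m-null tumours the other 8 members did not pass, among them Nfkb1 (log2 -0.62 ± 0.23 SE, adjusted p = 0.082). The isotype values of this comparison include 1 mouse with 17 cells. Summed macrophage markers in these mature DC were 87.7 to 282 CPM in the 4 treated B2m-null mice, highest in the mouse with 25 cells, and 61.9 to 150 CPM in the 5 isotype mice. Their part in the results was not tested.

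The third question is how anti-CD40 changed the same genes in control tumours. The treated group was 2 mice of 1 pool, so differences of that pool and of the treatment cannot be told apart. In CD8 T cells Tnfaip3, Cflar and Nfkbiz rose and Bcl2a1b fell, in monocytes Nfkbia fell, and in macrophages, NK cells, CD4 T cells and neutrophils 0 members passed. At an unadjusted edgeR p under 0.05 these 4 classes had 2, 0, 1 and 3 members, and DESeq2 called 1, 0, 0 and 1. In all, 5 of 58 pairs passed, where 16.9% of all pairs of a gene and a class did. By class the share of all genes was 32.5% in CD8 T cells, 11.6% in monocytes, 21.5% in macrophages, 3.98% in NK cells, 2.3% in CD4 T cells and 1.57% in neutrophils. In CD8 T cells 15.9% of all genes were higher and 16.6% lower, in monocytes 6.56% and 5.08%, and in macrophages 11.4% and 10.1%. Without the second control CD40 mouse, 1 of the 5 calls was left.

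Tnfaip3 in CD8 T cells stood at 440, 459, 354, 485 and 387 CPM under isotype and at 770 and 983 CPM under anti-CD40. Both treated mice lay well above the isotype range (2.10-fold, log2 1.07 ± 0.16 SE, adjusted p = 0.000116), and the call held under every alternative run. Cflar stood at 90.3, 94.9, 83.9, 98.7 and 93.7 CPM against 133 and 156 CPM (1.60-fold, log2 0.68 ± 0.17 SE, adjusted p = 0.0045). Nfkbiz stood at 104, 117, 134, 94.6 and 92.7 CPM against 154 and 158 CPM (1.47-fold, log2 0.56 ± 0.18 SE, adjusted p = 0.0216). For these 3 genes, named because they passed, the groups did not overlap, in cells where 32.5% of all genes passed. The share of all genes without overlap is not given here, so the lack of overlap is a description.

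Bcl2a1b in the same cells went from 312, 348, 351, 399 and 297 CPM to 207 and 181 CPM (log2 -0.79 ± 0.20 SE, adjusted p = 0.00598). Its paralog Bcl2a1d fell as well (log2 -0.74, adjusted p = 0.0042). The inhibitors Nfkbia and Nfkbie and the subunits Nfkb1 and Rel did not pass (log2 -0.12 to 0.19). Cflar, Bcl2a1b and Nfkbiz lost their calls without the second control CD40 mouse (adjusted p = 0.13, 0.14 and 0.18). They were also lost without control isotype replicate 1 (Cflar 0.082, Bcl2a1b 0.051) or its replicate 2 (Nfkbiz 0.14), and Nfkbiz without the first treated mouse (0.099) or the second control CD40 lane (0.072). The dissociation list moved in the same comparison, with 11 of 20 genes higher and 1 lower and a median log2 change of 0.70. Its summed level was 5897 and 6038 CPM in the treated mice and 3446 to 4685 CPM under isotype, and its part in the changes was not tested. Summed markers of other classes also differed without overlap in these CD8 T cells. Those of mature DC, which carry the highest Bcl2a1b, were 22.0 and 27.6 CPM in the treated mice and 50.7 to 102 CPM under isotype. Those of macrophages were 96.2 and 117 CPM against 60.8 to 80.8 CPM, and those of neutrophils 15.8 and 27.8 CPM against 1.72 to 10.6 CPM. Their part was not tested.

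**Figure D5:**
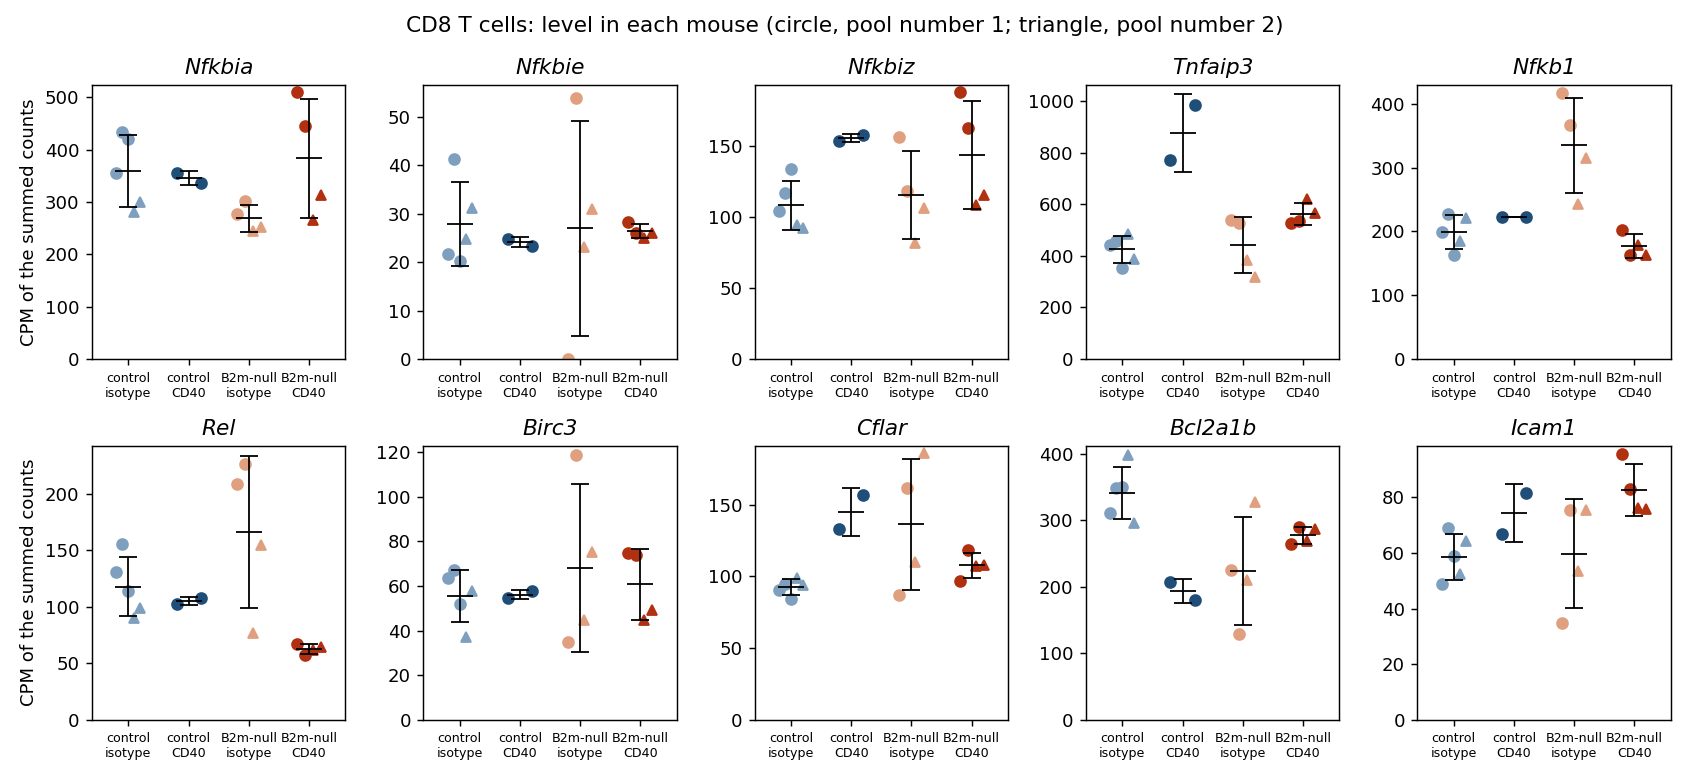
Level of each gene in CD8 T cells of each mouse, in CPM, by group, with the mean and SD in black and the pool number as the marker shape. Tnfaip3 and Cflar are high in both treated mice with control tumours, and Rel of treated mice with B2m-null tumours lies between 57.0 and 67.2 CPM.

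Among 42 further pathway genes tested in these CD8 T cells 9 rose and 4 fell, a share near the 32.5% of all genes that passed there, so the count is not a result about the pathway. The largest were Ccl5 (log2 2.51 ± 0.50 SE), the nuclear IκB gene Nfkbid (1.46 ± 0.28), Cd83 (-1.24 ± 0.38), the kinases Ikbke (0.99 ± 0.21) and Map3k14 (0.80 ± 0.27), and Bcl2a1d (-0.74 ± 0.18). In control macrophages 3 of 43 rose and 2 fell, a lower share than the 21.5% of all genes. They were Ccl5 (log2 1.72 ± 0.33), Il1b (-1.53 ± 0.40), Tnip3 (-0.83 ± 0.23), Tnip1 (0.70 ± 0.14) and Ikbkg (0.46 ± 0.12).

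Nfkbia in monocytes of control tumours stood at 1121, 1155, 1439, 1329 and 1080 CPM under isotype and at 863 and 667 CPM under anti-CD40, with no overlap (log2 -0.72 ± 0.15 SE, adjusted p = 0.00201). It was lost without the second treated mouse (adjusted p = 0.19) and under a stricter gate (0.078). Of the 20 dissociation genes 2 rose and 2 fell here, with a median log2 change of -0.27, and their summed level was 11590 and 13169 CPM under anti-CD40 and 13244 to 14485 CPM under isotype, with no overlap. The 2 treated mice held 318 and 3118 CPM of neutrophil markers against 56.5 to 321 CPM under isotype. Their T cell markers summed to 150 and 274 CPM against 24.0 to 41.2 CPM, with no overlap. The part of these in the result was not tested. In macrophages Nfkbia was 378 and 358 CPM under anti-CD40, below the 457 to 626 CPM of all isotype mice, and Rel was 62.9 and 70.4 CPM against 90.7 to 134 CPM. Neither passed with composition scaling (Nfkbia log2 -0.43, adjusted p = 0.11; Rel log2 -0.62, adjusted p = 0.051). Both passed with library totals (Nfkbia log2 -0.56, adjusted p = 0.037; Rel log2 -0.76, adjusted p = 0.021). In these macrophages T cell markers summed to 17.5 and 25.3 CPM under anti-CD40 and to 4.68 to 9.66 CPM under isotype. Those of mature DC, which carry the highest Rel, were 5.72 and 9.90 CPM against 10.3 to 18.9 CPM. Neither set overlapped, while neutrophil markers did, at 88.1 and 166.5 CPM against 28.2 to 88.8 CPM. The part of these markers in the values of Nfkbia and Rel was not tested.

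The fourth question is whether the CD40 effect differed between tumour genotypes. The difference of the 2 effects passed for 11 of 48 pairs, where 11.4% of all pairs of a gene and a class passed (18.8% of genes in macrophages, 14.4% in monocytes and 7.44% in CD8 T cells). Differences with a higher effect in B2m-null tumours made up 9.5% of genes in macrophages, 8.27% in monocytes and 5.22% in CD8 T cells, and those with a lower effect 9.26%, 6.14% and 2.22%. In macrophages the effect on Nfkbie was higher in B2m-null tumours by log2 1.31 ± 0.32 SE (adjusted p = 0.0115), with effects of 0.90 in B2m-null and -0.41 in control tumours. For Icam1 the difference was 1.09 ± 0.29 (adjusted p = 0.0174), for Nfkbia 0.92 ± 0.24 (0.0142) and for Bcl2a1b 0.80 ± 0.27 (0.0445). Isotype levels enter each of these differences. Under isotype, Icam1, Bcl2a1b and Nfkbie were lower in macrophages of B2m-null than of control tumours, as given below. Under anti-CD40, 0 members passed between the genotypes in macrophages by edgeR. The effect in control tumours enters each difference as well. The T cell and mature DC markers of macrophages of control tumours, given above, did not overlap between treated and isotype mice. Their part was not tested. In monocytes the difference was 1.42 ± 0.35 for Bcl2a1b (0.00858), 1.28 ± 0.30 for Nfkbie (0.00676), 0.73 ± 0.24 for Birc3 (0.0427) and 0.58 ± 0.18 for Nfkbia (0.0353). T cell markers and summed dissociation genes of control monocytes, given above, did not overlap between treated and isotype mice. Their part in these differences was not tested. In CD8 T cells Bcl2a1b had a difference of 1.26 ± 0.28 (0.0104), with effects of -0.79 in control and 0.46, which did not pass, in B2m-null tumours. Cflar (-0.80 ± 0.24, 0.0482) and Nfkb1 (-0.79 ± 0.21, 0.0254) differed in the other direction. Mature DC, macrophage and neutrophil markers of control CD8 T cells, given above, did not overlap either, and their part was not tested. Composition scaling raised the differences by a median log2 of 0.06 in macrophages, 0.21 in monocytes and 0.14 in CD8 T cells.

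Rel did not pass in this comparison in any class of the fit. Its difference was log2 0.12 ± 0.28 SE in macrophages, -0.71 ± 0.30 in monocytes (adjusted p = 0.11) and -0.74 ± 0.33 in CD8 T cells (0.18). In mature DC, in the fit that admitted 5 cells, it was -0.84 ± 0.33 (adjusted p = 0.18). A difference between genotypes in the fall of Rel was thus not shown, nor was it excluded. All 11 differences rest on the 2 treated mice with control tumours: without the first, 3 members-by-class pairs passed, and without the second, 1. Without control isotype replicate 1, 2 passed, and with the lane as the unit, 0 of 98. Without either treated control mouse, and with the lane as the unit, that group is 1 sample, which is assumed to vary like the other groups.

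Few effects of genotype alone passed the edgeR threshold. Under isotype 3 of 94 pairs passed, all of them lower in macrophages of B2m-null tumours, where 10% of all genes passed (4.12% higher and 5.92% lower, and 2.65% over all classes). In monocytes 1.61% of all genes passed, in cDC1 1.15% (0.743% higher), and 0 members did by edgeR or DESeq2, with 4 and 0 at an unadjusted edgeR p under 0.05. DESeq2 called 4 members in macrophages and 2 in CD8 T cells, where 0.298% of all genes passed by edgeR. At an unadjusted edgeR p under 0.05 there were 7 members in macrophages, 4 in CD8 T cells and 3 in NK cells. Neutrophils and cDC2 had 2 each and mature DC 1. In macrophages Icam1 stood at 55.3, 60.0, 56.9, 38.4 and 48.1 CPM in control and at 29.3, 31.7, 22.7, 41.4 and 27.0 CPM in B2m-null tumours (log2 -0.78 ± 0.18 SE, adjusted p = 0.013). Bcl2a1b stood at 512, 361, 383, 341 and 386 CPM against 337, 220, 263, 296 and 234 CPM, with no overlap (log2 -0.62 ± 0.16 SE, adjusted p = 0.021). Nfkbie differed by log2 -0.71 ± 0.20 SE (adjusted p = 0.0314). These are 3 of the genes that rose under anti-CD40 in the same macrophages, but both comparisons use the same B2m-null isotype mice, so low values there enter both. All 3 calls were lost without control isotype replicate 1 (adjusted p = 0.30 to 0.43) and without B2m-null isotype replicate 1 (0.18 to 0.21). Of 43 further pathway genes 9 were lower and 0 higher (edgeR), among them Ccl5, Bcl2a1a, Tnf, Bcl2a1d, Ccl4 and Sod2, at log2 -1.29 to -0.84.

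Under anti-CD40, 3 of 66 pairs passed between the genotypes, all in monocytes, where 13.9% of all genes passed (6.77% higher, 7.14% lower, and 7.57% over all classes). Bcl2a1b was higher in B2m-null tumours, at 475 to 802 CPM against 284 and 408 CPM (log2 1.03 ± 0.28 SE, adjusted p = 0.0162), as was Nfkbia, at 954 to 981 CPM against 863 and 667 CPM (log2 0.51 ± 0.15 SE, adjusted p = 0.025). Composition scaling raised fold changes in this comparison by a median of 0.17 on the log2 scale. Rel was lower, at 75.9 to 117 CPM against 235 and 200 CPM (log2 -0.93 ± 0.24 SE, adjusted p = 0.0104). The 3 genes, named because they passed, did not overlap between the groups of 4 and 2 mice. The share of all genes without overlap is not given here, so this is a description. T cell markers did not overlap either, at 23.5 to 30.3 CPM in B2m-null and 150 and 274 CPM in control tumours, and neutrophil markers were 92.3 to 2264 CPM and 318 and 3118 CPM. Of the 20 dissociation genes 4 were lower in B2m-null tumours and 0 higher by the same test. The part of these in the 3 results was not tested. Without the first control CD40 mouse Bcl2a1b (0.18) and Rel (0.095) were lost, and without the second all 3 were (0.069 to 0.47). Rel was lost without B2m-null CD40 replicate 1 (0.074), and Bcl2a1b (0.13) and Nfkbia (0.10) without its replicate 2. Bcl2a1b was lost without the first control CD40 lane (0.12) and Nfkbia without the second (0.11). In macrophages, where 11.6% of all genes passed (5.03% higher), and in CD8 T cells (7.13%) 0 members passed by edgeR (2 and 3 at an unadjusted p under 0.05), and DESeq2 called 1 and 2. In NK cells, where 1.45% of all genes passed, 0 did by either tool, with 2 at an unadjusted edgeR p under 0.05. The lowest adjusted p by edgeR was 0.058 for Nfkbia in macrophages and 0.0503 for Tnfaip3 in CD8 T cells.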

How the data were processed

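UMI counts per gene and cell were deposited by the authors as 1 matrix per lane. Per the submitters' processing notes they were made with Cell Ranger 3.0.0 and bcl2fastq 2.20.0.422 on the mm10 build. Hashtag antibodies were counted in the same matrices. The labels list 3 hashtags per pool, whereas 2 files hold 3 and 6 hold 2.

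Cells were assigned to a mouse from hashtag counts with a mixture model (posterior 0.9 or higher), and hashtag doublets (8.29% of barcodes) were removed. Cells with under 200 genes or over 10% mitochondrial counts were left out, as were cells with markers of several lineages. No other doublet caller was run. Counts were summed per mouse and class, joining the 2 control CD40 lanes, which are technical replicates. Sums of at least 20 cells entered edgeR 4.0.16 (filterByExpr, TMM, quasi-likelihood test) in R 4.3.3 with all 4 groups in 1 fit, needing 2 mice per arm. Fits with a sample left out, or with the lane as the unit (the control CD40 lanes summed as 1), also admitted arms of 1, assumed to vary like the other groups. The Benjamini-Hochberg adjustment ran over all genes of a class, and the adjusted p threshold was 0.05. The standard error was derived from the F statistic. CPM were computed on library totals. A simulation with known changes was run as a test of the script. Mice, each 1 hashtag, are the replicates.

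The members and gene lists were chosen with earlier results of these data known. The rule let every member be named in each class tested; some that did not pass are given only by count or range. Of the further pathway genes, those called with the largest change were named, at most 6 per class and comparison. Alternatives were DESeq2 1.42.0, its size factors (RLE), no filter on low counts, the lane as the unit, a replicate block, a stricter gate, a minimum of 50 cells, removal of the top 5% of UMI counts, at most 5% mitochondrial counts and leaving out each replicate or control CD40 mouse. A minimum of 5 cells and library totals without TMM were added after the data were seen. Replicate numbers name pools, and nothing in the labels says that they pair them.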

Additional observations from a re-analysis of the deposited data

Results flagged for a closer look

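In 5 of 110 groups of 4 or 5 mice, 1 mouse lay far from the others by Dixon's criterion, which chance meets in about 1 in 20 groups. In macrophages of B2m-null tumours under anti-CD40, the highest mouse held 343 CPM of Nfkbiz (next 242) and 70.3 CPM of Rel (next 46.3). In macrophages of control tumours under isotype, the highest mouse held 512 CPM of Bcl2a1b (next 386). In monocytes of the same group, the lowest mouse held 216 CPM of Nfkb1 (next 319) and 51.6 CPM of Icam1 (next 93.6).

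For 11 pairs of a gene and a class, the effect of anti-CD40 differed between the tumour genotypes in the test of the difference itself (edgeR, log2 scale, B2m-null minus control). In macrophages the difference was 1.31 for Nfkbie, 1.09 for Icam1, 0.92 for Nfkbia and 0.80 for Bcl2a1b. In monocytes it was 1.42 for Bcl2a1b, 1.28 for Nfkbie, 0.73 for Birc3 and 0.58 for Nfkbia. In CD8 T cells it was 1.26 for Bcl2a1b, -0.80 for Cflar and -0.79 for Nfkb1. Each rests on 2 treated mice with control tumours, from 1 pool.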

How the results depend on the processing

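No called pair of a gene and a class changed direction under any alternative. Of the 39 called pairs, 38 kept their call with DESeq2, 38 with RLE size factors, 34 with at least 50 cells, 30 with library totals, 24 with the stricter gate and 10 with the lane as the unit. The number of pairs called under anti-CD40 in B2m-null tumours was 17, against 11 with at most 5% mitochondrial counts and 10 to 17 when 1 replicate was left out. In control tumours it was 5, against 8 with DESeq2, 1 with the lane as the unit and 1 to 8 with 1 replicate left out. The difference of effects had 11, against 0 with the lane as the unit, 6 with at most 5% mitochondrial counts, 4 with the stricter gate and 1 to 12 with 1 replicate left out. Between genotypes under anti-CD40 it was 3, against 6 with DESeq2, 0 with the lane as the unit, 8 without a filter, 5 without the top 5% of UMI counts, 5 with at least 50 cells, 8 with at most 5% mitochondrial counts and 0 to 8 with 1 replicate left out. Between genotypes under isotype it was 3, against 6 with DESeq2, 0 with the lane as the unit, 7 without a filter, 1 with at most 5% mitochondrial counts and 0 to 9 with 1 replicate left out. Calls under anti-CD40 in B2m-null tumours were lost with the lane as the unit too. The pairs kept over all comparisons were then fewer than the 17 called there. Taking the lane as the unit leaves 7 pools in place of 16 mice, 1 of them for control CD40, and the stricter cell filters test fewer pairs. The cause of the other shifts was not tested. The replicate block gave 21 of 56 pairs in B2m-null tumours and 4 of 94 between genotypes under isotype. The labels tie same-numbered pools by nothing but the number, and with 2 numbers a pairing cannot be told from the data. Correlations of their deviations were 0.33 in macrophages, 0.29 in monocytes and 0.40 in CD8 T cells between the B2m-null isotype and CD40 pools, -0.015 to 0.052 between the 2 isotype groups, and 0.077, -0.12 and 0.34 in the same classes between control isotype and B2m-null CD40. With the block, in B2m-null tumours, Birc3 in monocytes lost its call (adjusted p = 0.058), and calls were gained for Tnfaip3 (0.039) and Cflar (0.049) in macrophages and Icam1 in CD8 T cells (0.037) and NK cells (0.041). Rel in macrophages between genotypes under isotype (0.031) was gained as well, as was Birc3 in B cells (3 against 2 mice), whose log2 change moved from -0.58 (adjusted p = 0.56) to -2.70 (0.041). The number of genes highest in mature DC was 7 under each alternative run on it. Depth limits the small classes: Nfkbie had 0 counts in the 21 CD8 T cells of 1 B2m-null isotype mouse. It differed between groups in large classes too. Median UMI counts per cell were 1454 in control CD40 and 3023.5 in B2m-null CD40 monocytes, and 3445 and 5797.5 in macrophages. The gates count detected markers, and the part of these depths was not tested.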
